A study of Mus musculus with 8 samples.

Results

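The 29 genes described here encode the enzymes that build cholesterol and the proteins that sense, move, store and export it. They were chosen by symbol from 24421 rows of the deposited counts table, and all 29 were found. They were ordered by pathway step into 10 enzymes that act before Cyp51, Cyp51 itself, 7 enzymes that act after it, 4 regulators of the SREBP transcription factors, and 7 genes of sterol uptake, transport, storage and efflux. Of the 29, 26 passed the filter on low counts and were tested, and Abca1, Abcg1 and Mylip did not pass it.

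Cholesterol is made from acetyl-CoA through mevalonate, the isoprenoids and squalene to lanosterol, whose demethylation by CYP51 opens the last stretch of the pathway. When sterols are scarce in the membrane of the endoplasmic reticulum, SCAP carries SREBP proteins to the Golgi for cleavage, and the released fragment switches on the synthesis genes. When sterols are plentiful, INSIG proteins hold SCAP back, surplus cholesterol is esterified, and LXR receptors switch on the exporters ABCA1 and ABCG1.

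The data came from KPCY cells, a mouse pancreatic cancer line derived from ductal tumours. The miR-27a knockdown line carried a lentiviral vector that inhibits miR-27a-3p (4 libraries), and the scrambled line carried the same kind of vector with a scrambled sequence (4 libraries). Both were male by the labels, went through 7 days of puromycin at 2 µg/mL after transduction, and were kept in medium with 4.5 g/L glucose and 10% serum. RNA was taken 24 hours after seeding. The labels call the replicates biological but name 1 stable line per group and not the number of transductions, so p-values cover the spread between cultures of a line, not that between separately made lines. In bulk RNA, fewer expressing cells and less RNA per cell cannot be told apart.

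Library totals ran from 19165513 to 23542275 counts. All 9 ductal epithelial markers examined averaged at least 1 CPM, as did 1 of 5 acinar and 1 of 4 leukocyte markers. CPM are counts scaled for library depth, by plain library totals for these markers and, unless stated, with TMM factors elsewhere. The acinar markers summed to 1.93 to 2.83 CPM in the knockdown, against 2.40 to 3.95 CPM in scrambled libraries. The leukocyte markers summed to 2.53 to 4.34 CPM in the knockdown, against 3.61 to 3.90 CPM in scrambled libraries. The 6 fibroblast markers summed to 0.730 to 1.39 CPM in the knockdown, against 0.934 to 1.39 CPM in scrambled libraries. Scrambled replicate 2 stood apart, its chi-square against each of the other scrambled libraries being 5.03 to 5.20 per gene, while pairs of those others gave 1.79 to 2.31. Values without it are therefore given below.

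Most of these genes were lower in the knockdown line. Of the 26 tested, 19 fell, 3 rose and 4 did neither at an adjusted p under 0.05 (edgeR's quasi-likelihood test, Benjamini-Hochberg adjustment over 11797 genes). Across all tested genes 24.1% fell and 23.8% rose. The median log2 fold change, knockdown over scrambled, was −0.29 over the 26 genes and 0.0017 over all tested genes. All 10 enzymes before Cyp51 fell and 4 of the 7 after it did, a difference between steps that was not tested, and the esterifying enzyme Soat1 rose. In 22 of the 26 genes the knockdown and scrambled libraries did not overlap, which held for 42.2% of all tested genes. Without scrambled replicate 2 the counts were again 19 falls and 3 rises, with a median of −0.25.

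**Figure D1:**
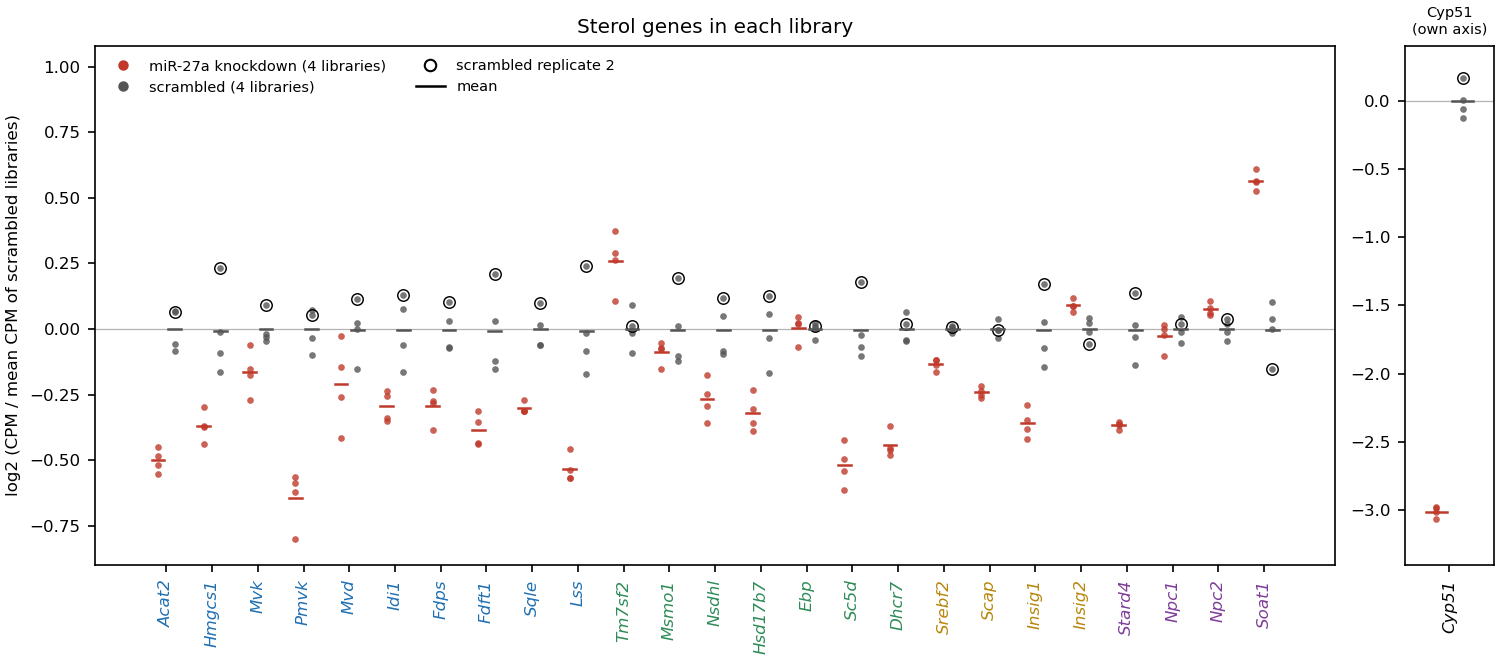
Level of each tested gene in each library, as log2 of its CPM over the mean CPM of the scrambled libraries, in pathway order, with Cyp51 on its own axis. Knockdown libraries (red) lie below scrambled ones (grey) for most synthesis genes and above them for Soat1 and, by small margins, Tm7sf2, Npc2 and Insig2. Circles mark scrambled replicate 2.

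All 10 enzymes before Cyp51 fell, by 1.12-fold to 1.56-fold, and in 9 of the 10 the groups did not overlap. Pmvk, phosphomevalonate kinase, fell most. It stood at 33.9, 33.3, 32.6 and 28.8 CPM in the knockdown libraries, against 46.8, 52.0, 49.0 and 52.8 CPM in the scrambled libraries. Every knockdown value lay well under the lowest scrambled value, a 1.56-fold fall (log2 fold change −0.64, SE 0.0537, adjusted p = 1.62e-09).

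Lss, lanosterol synthase, closes the sterol rings and supplies the substrate of CYP51. Its knockdown levels were 118, 115, 124 and 115 CPM, against 151, 201, 161 and 169 CPM in the scrambled libraries. Scrambled replicate 2 was the highest, and Lss was 1.44-fold lower with it (log2 fold change −0.53, adjusted p = 6.48e-08 by edgeR), with a log2 fold change of −0.44 without it.

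Acat2, the cytosolic thiolase that condenses acetyl-CoA at the head of the pathway, had 101, 96.3, 98.6 and 94.1 CPM in the knockdown libraries, against 130.0, 144, 133 and 145 CPM in the scrambled libraries. The groups were well separated, a 1.41-fold fall (adjusted p = 1.66e-10 by edgeR). Of its stretches of 59 bases, the read length, 37.2% also occur in Acat3. That gene had only 0.666 ± 0.210 CPM in the knockdown, against 0.569 ± 0.309 CPM in scrambled libraries (SD, n = 4 each). The split of reads between the pair is uncertain.

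Hmgcs1, the cytosolic HMG-CoA synthase, had 268, 282, 267 and 255 CPM in the knockdown libraries, against 310, 407, 325 and 344 CPM in the scrambled libraries. Scrambled replicate 2 again stood highest, and the fall was 1.29-fold with it (adjusted p = 5.01e-06 by edgeR) and 1.22-fold without it. Among the 23 of the 29 genes with a promoter window, Hmgcs1 was the 1 whose window held the sterol element core TCACNCCAC, on either strand. Other spellings of a sterol element were not searched. Its window (RefSeq, GRCm38.p6 chr13:119690101-119690400, plus strand, 250 bases before to 50 after the gene start) is shown for that reason, with this core, read as TCACCCCAC, and each CCAAT or its complement ATTGG in capitals.
Hmgcs1: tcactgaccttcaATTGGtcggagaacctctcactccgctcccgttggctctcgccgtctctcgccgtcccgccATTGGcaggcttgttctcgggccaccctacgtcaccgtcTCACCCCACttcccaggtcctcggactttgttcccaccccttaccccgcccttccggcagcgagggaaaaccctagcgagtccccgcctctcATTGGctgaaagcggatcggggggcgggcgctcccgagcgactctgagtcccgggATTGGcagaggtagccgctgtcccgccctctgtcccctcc

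Both enzymes that make and oxidise squalene fell. Fdft1, squalene synthase, averaged 108 ± 4.64 CPM in the knockdown, against 141 ± 16.6 CPM in scrambled libraries, a 1.30-fold fall that was 1.24-fold without scrambled replicate 2. It shares 774 exon bases with Ctsb on the opposite strand, a cathepsin gene that fell 1.14-fold. Sqle, squalene epoxidase, had 177, 176, 182 and 176 CPM in the knockdown libraries, against 210, 235, 210.0 and 222 CPM in the scrambled libraries, with every knockdown value lower, a 1.23-fold fall (adjusted p = 6.59e-08 by edgeR).

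The other 4 early enzymes fell by 1.12-fold to 1.22-fold. Fdps, farnesyl diphosphate synthase, averaged 222 ± 9.84 CPM in the knockdown, against 271 ± 15.8 CPM in scrambled libraries, a 1.22-fold fall. A 59-base read from Fdps can also match other annotated genes over 25.1% of its stretches, and one from the isomerase Idi1, which fell 1.22-fold, over 17.3%, so both levels are uncertain. Mvk, mevalonate kinase, fell 1.12-fold (36.0 ± 2.15 against 40.3 ± 1.80 CPM, adjusted p = 0.0109) and Mvd, mevalonate diphosphate decarboxylase, 1.15-fold (46.6 ± 5.30 against 53.7 ± 4.06 CPM, adjusted p = 0.0107, edgeR for both, n = 4 each). Mvd was the 1 early enzyme whose groups overlapped, and without knockdown replicate 4 neither call held (adjusted p = 0.0707 for Mvd and 0.0583 for Mvk).

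Cyp51, lanosterol 14-alpha-demethylase, showed by far the largest difference of the 26 genes. It had 253, 246, 251 and 238 CPM in the knockdown libraries, against 1821, 2234, 1901 and 1998 CPM in the scrambled libraries. No knockdown value came near a scrambled one, and the fall was 8.05-fold (log2 fold change −3.01, SE 0.0435, 95% interval −3.10 to −2.92, adjusted p = 1.54e-24 by edgeR). It was 7.72-fold without scrambled replicate 2, the highest library.

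Cyp51 lies on the minus strand of chromosome 5 (GRCm38, 4081145 to 4104746), and its surroundings fell with it. It was 1 of 37 tested genes in a row, starting with the earliest on the chromosome, whose log2 fold change was under −1. The other 36 ran from −3.64 to −1.14 with a median of −2.51, and 3 of them fell more than Cyp51. On 1 side its nearest tested neighbours were the mitochondrial transcription termination factor gene Mterf1a (−2.49) and the scaffold gene Akap9 (−2.21). On the other they were Mterf1b (−2.44) and the Wnt receptor gene Fzd1 (−2.80). Akap9 shares 166 exon bases with Cyp51 on the opposite strand, and whether the counting used strand is not given in the sources used here. What part this stretch has in the fall of Cyp51 was not tested. Insig1, 24.0 Mb further along, and Mvk, 110 Mb further along, lie outside it.

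**Figure D2:**
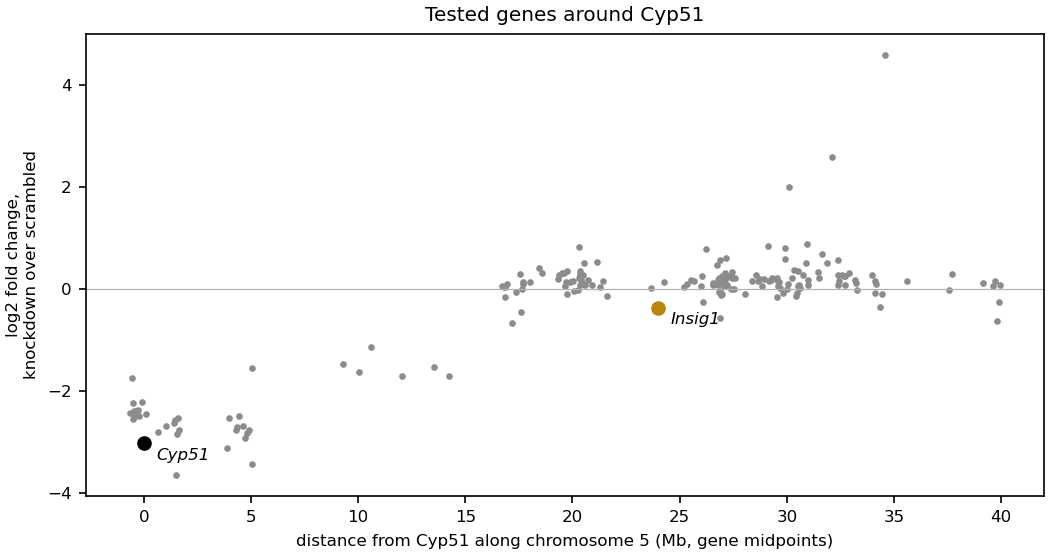
Log2 fold change, knockdown over scrambled, of tested genes on chromosome 5 by distance of the gene midpoint from Cyp51 in Mb, up to 40 Mb. Cyp51 (black) sits among 36 other genes that all lie at −1.14 or lower, while Insig1 (gold) lies 24.0 Mb away at −0.36.

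Set per length, Cyp51 was the highest of the 18 synthesis enzymes in the scrambled line and much nearer to the others in the knockdown line. It had 56.0 ± 1.59 CPM per kb of exon in the knockdown, against 450.4 ± 40.5 CPM per kb in scrambled libraries (SD, n = 4 each). The median of the other 17 enzymes was 25.1 CPM per kb in the knockdown, against 29.3 in scrambled libraries, so Cyp51 stood 2.23 times above it in the knockdown and 15.4 times above it in the scrambled line. With the longest coding transcript as the length, which was added after the data were seen, these ratios were 2.33 and 13.3. In the knockdown 1 other enzyme, Hmgcs1, had a higher level per length than Cyp51, and 4 had with that other length.

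**Figure D3:**
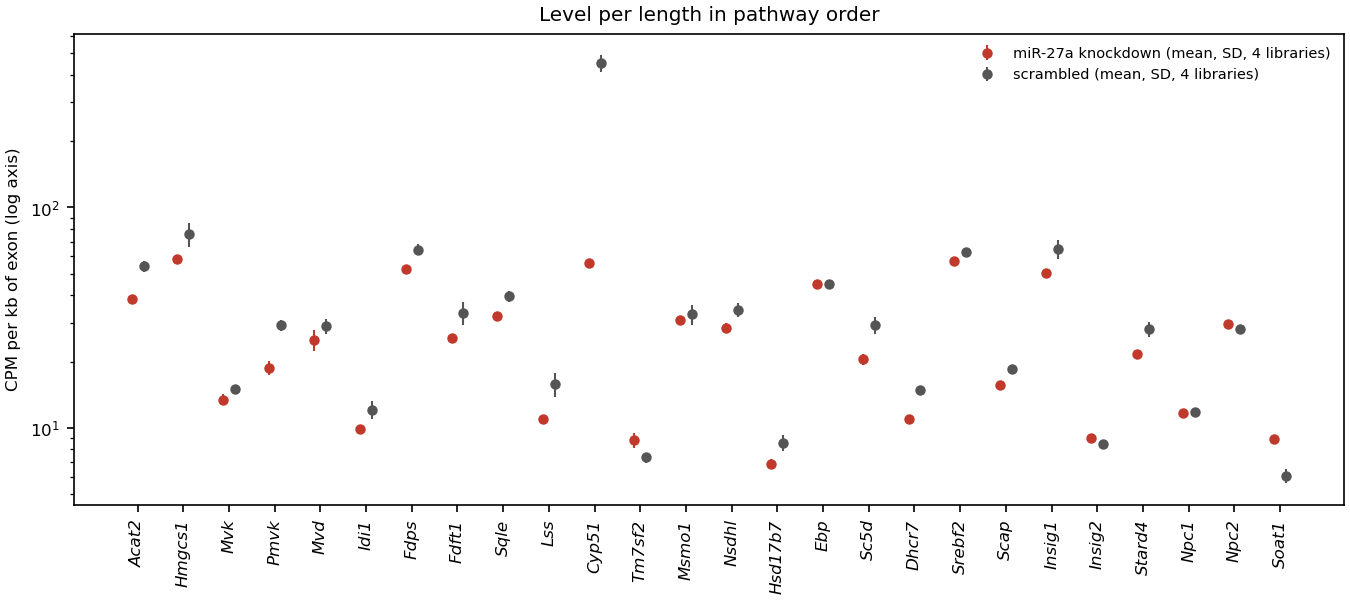
Mean CPM per kb of exon with SD over 4 libraries, on a log axis, for the knockdown (red) and scrambled (grey) lines in pathway order. Cyp51 at 450.4 stands far above the rest in the scrambled line and at 56.0 lies within their range in the knockdown line.

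The promoter window of Cyp51 (RefSeq, GRCm38.p6 chr5:4104648-4104947, minus strand, printed 5′ to 3′ along the gene) is shown because this gene changed most. CCAAT is in capitals. Sterol elements spelled other than TCACNCCAC were not searched and are not marked.
Cyp51: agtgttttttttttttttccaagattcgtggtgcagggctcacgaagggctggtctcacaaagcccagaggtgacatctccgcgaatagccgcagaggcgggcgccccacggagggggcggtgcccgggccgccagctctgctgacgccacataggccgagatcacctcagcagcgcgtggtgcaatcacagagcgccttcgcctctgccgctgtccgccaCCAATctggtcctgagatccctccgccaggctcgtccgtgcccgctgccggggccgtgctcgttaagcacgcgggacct

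The 7 enzymes after Cyp51 were mixed, with 4 falls, 1 rise and 2 that did neither. Sc5d, the sterol C5 desaturase, fell most, with 97.9, 101, 106 and 93.1 CPM in the knockdown libraries, against 133, 161, 136 and 140.1 CPM in the scrambled libraries. The groups did not overlap, and the fall was 1.43-fold (adjusted p = 9.40e-09 by edgeR), or 1.37-fold without scrambled replicate 2. Dhcr7, which reduces 7-dehydrocholesterol to cholesterol, had 63.0, 62.2, 67.1 and 63.3 CPM in the knockdown libraries, against 84.1, 87.9, 84.3 and 90.8 CPM in the scrambled libraries, a clear gap and a log2 fold change of −0.44 (adjusted p = 1.96e-09).

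Nsdhl and Hsd17b7, which act on the methyl and keto groups at carbon 4, fell too, with log2 fold changes of −0.27 and −0.32. Msmo1, the methyl sterol monooxygenase of the same complex, was not called, with 189 ± 5.54 CPM in the knockdown, against 201 ± 20.8 CPM in scrambled libraries (95% interval of the log2 fold change −0.18 to 0.01, adjusted p = 0.128 by edgeR). Its scrambled values ran from 185 to 230.0 CPM, the highest in replicate 2, and it was called lower without scrambled replicate 1 (adjusted p = 0.0488) or 3 (0.0307). Without replicate 2 its log2 fold change was −0.02 (adjusted p = 0.638), against −0.09 with all libraries. Ebp, the sterol isomerase, had nearly the same level in both lines, 104 ± 3.60 CPM in the knockdown, against 104 ± 2.04 CPM in scrambled libraries, with an interval of −0.06 to 0.07.

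Tm7sf2, a sterol C14 reductase that follows CYP51, was the 1 synthesis enzyme that rose. It had 42.0, 38.8, 39.5 and 34.9 CPM in the knockdown libraries, against 30.3, 32.6, 32.0 and 34.5 CPM in the scrambled libraries. The closest values, 34.9 and 34.5, nearly met, and the log2 fold change was 0.26 (SE 0.0562, adjusted p = 0.000565 by edgeR). Tm7sf2 shares 532 exon bases with Vps51, a vesicle-tethering gene on the same strand, which rose 1.25-fold (33.5 ± 0.756 against 26.8 ± 0.621 CPM). Its part in the rise of Tm7sf2 was not tested.

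Among the SREBP regulators 3 of 4 fell. Insig1, itself a sterol-responsive gene, had 157, 153, 164 and 149 CPM in the knockdown libraries, against 181, 225, 190.1 and 203 CPM in the scrambled libraries. Every knockdown value was lower, a 1.28-fold fall (adjusted p = 1.19e-06 by edgeR), or 1.23-fold without scrambled replicate 2. Srebf2, the SREBP gene most tied to cholesterol synthesis, had 412, 417, 404 and 417 CPM in the knockdown libraries, against 456, 455, 453 and 448 CPM in the scrambled libraries. The change was small and tight, 1.10-fold (adjusted p = 2.17e-05). Scap fell 1.18-fold, 116 ± 1.56 against 138 ± 2.84 CPM. Insig2 was not called, with 31.2 ± 0.488 CPM in the knockdown, against 29.4 ± 0.905 CPM in scrambled libraries (interval −0.01 to 0.19 on the log2 scale), although the groups did not overlap.

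**Figure D4:**
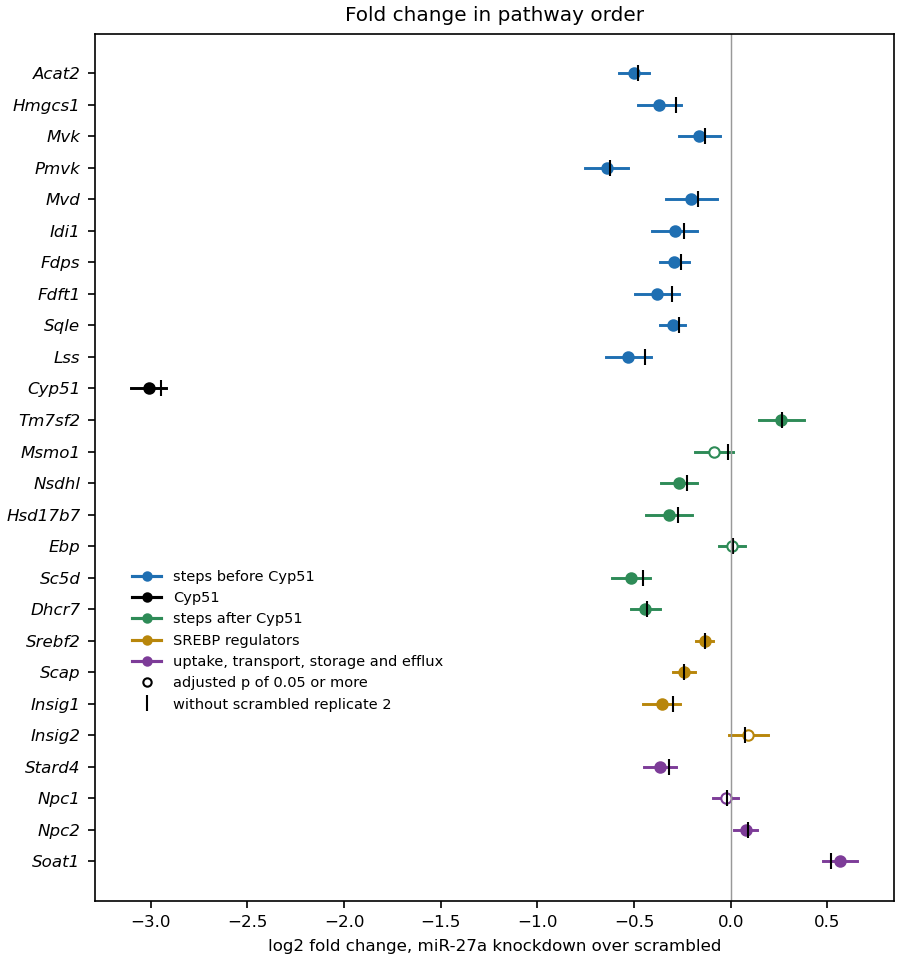
Log2 fold change, knockdown over scrambled, with 95% interval for each tested gene in pathway order, open symbols where the adjusted p was 0.05 or more and ticks for the value without scrambled replicate 2. Cyp51 lies at −3.01, Soat1 at 0.57 and most other synthesis genes between −0.64 and −0.16.

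Of the 7 genes of uptake, transport, storage and efflux, 4 were tested. Soat1, which esterifies cholesterol for storage, rose most of the 26 genes. It had 87.3, 90.2, 87.6 and 85.3 CPM in the knockdown libraries, against 63.5, 53.2, 59.1 and 60.8 CPM in the scrambled libraries. Scrambled replicate 2 was the lowest, and the rise was 1.48-fold with it (log2 fold change 0.57, SE 0.0431, adjusted p = 3.36e-10 by edgeR) and 0.52 on the log2 scale without it.

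Stard4, which carries sterols between membranes, went the other way. Its knockdown levels of 122, 122, 120.1 and 122 CPM were close together and below all scrambled levels of 142, 172, 154 and 158 CPM, a 1.29-fold fall (adjusted p = 1.09e-07 by edgeR). The lysosomal exporters barely differed. Npc2 had 161 ± 2.68 CPM in the knockdown, against 153 ± 3.75 CPM in scrambled libraries, a log2 fold change of 0.08 (adjusted p = 0.0266 by edgeR), and this call was lost without knockdown replicate 1 or 4 or scrambled replicate 1 or 3 (adjusted p = 0.0513 to 0.0965). Npc1 had 132 ± 4.85 CPM in the knockdown, against 134 ± 3.86 CPM in scrambled libraries (interval −0.09 to 0.04).

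Mylip, Abca1 and Abcg1, which LXR receptors can switch on, were almost silent in both lines. Mylip, a ubiquitin ligase for lipoprotein receptors, had 0 counts in all 8 libraries. A level of up to 3 counts in a library (0.127 to 0.157 CPM by plain library totals) could still give that result. Abca1 had 5, 7, 9 and 3 counts in the knockdown libraries, against 4, 2, 2 and 1 counts in the scrambled libraries. These counts lie near that limit and overlap between lines (exact two-sided permutation p = 0.0571 for CPM, adjusted p = 0.114 over the 2 genes tested this way, and 0.0286 the smallest that 4 against 4 allow). Abcg1 had 7 counts over the knockdown and 1 over the scrambled libraries, and 6 of the 7 came from knockdown replicate 4 (exact permutation p = 0.429, adjusted p = 0.429). The limits and counts cover counting error only.

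The synthesis genes also shifted as a group in some libraries of a line and not in others. In scrambled replicate 2 all 18 lay above the mean of the other 3 scrambled libraries, by a median of 0.16 on the log2 scale, with a range of 0.01 to 0.33. In scrambled replicates 1 and 3 the medians were −0.12 and −0.09 with 1 of 18 above in each, and in replicate 4 it was 0.04 with 14 above. The mean that replicates 1, 3 and 4 are set against holds the high replicate 2. In knockdown replicate 4 the median was −0.09 with 1 of 18 above, and in replicate 3 it was 0.04 with 16 above. Knockdown replicates 1 and 2 had 11 and 8 of 18 above, with medians of 0.04 and −0.0037. For all tested genes these medians were within 0.0024 of 0. Summed over the 17 synthesis genes other than Cyp51, the levels were 1767, 1764, 1805 and 1672 CPM in the knockdown libraries, against 2038, 2411, 2063 and 2210.3 CPM in the scrambled libraries. The sums did not overlap, and the lowest scrambled sum was that of replicate 1.

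**Figure D5:**
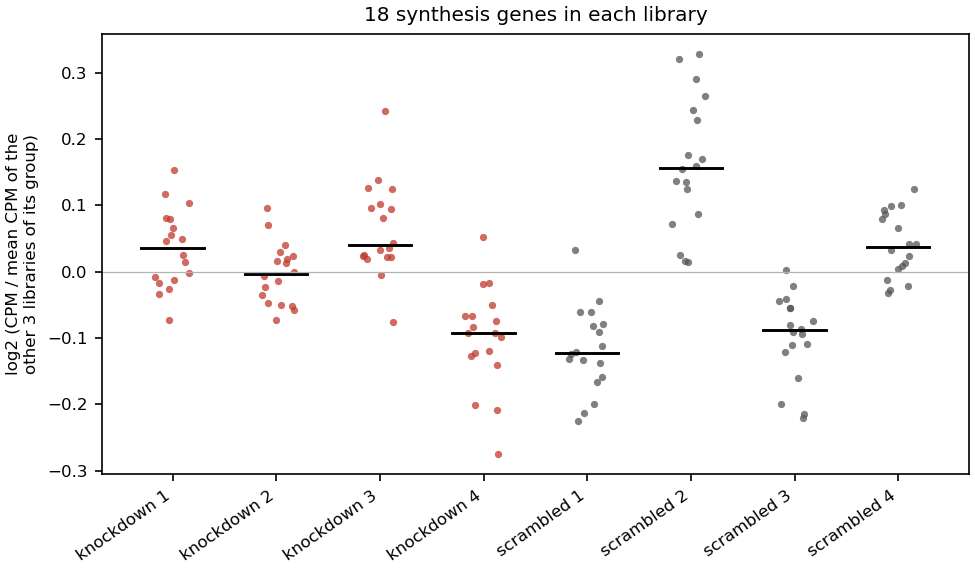
Each of the 18 synthesis genes in each library, as log2 of its CPM over the mean CPM of the other 3 libraries of its line, with the median as a bar. Scrambled replicate 2 has all 18 points above 0 (median 0.16), and scrambled replicate 1 (−0.12) and knockdown replicate 4 (−0.09) lie mostly below it.

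A wider list of sterol genes had 25.5% falls, near the share of all genes, and 32.7% rises, above it. Neither difference in share was tested. Of 61 other genes of sterol synthesis, handling and control in the table, 55 were tested, and 14 fell, 18 rose and 23 did neither, with a median log2 fold change of 0.03, beside 24.1% lower and 23.8% higher over all tested genes. The 4 falls with the smallest adjusted p had log2 fold changes of −0.94 to −0.27. The rises with the smallest adjusted p included Mbtps1, the protease that first cuts SREBP (179 ± 3.51 against 151 ± 2.15 CPM, 1.19-fold). They also included Erlin2, 1.24-fold, part of the machinery that breaks down sterol-regulated proteins in the endoplasmic reticulum, and the transporter gene Abca7, 1.34-fold (edgeR adjusted p at most 1.49e-07 for these genes). Mbtps1 and Erlin2 lie on chromosome 8, whose 628 tested genes had a median log2 fold change of 0.21. Mvd and Msmo1 lie there too, at −0.21 and −0.09. The part that the higher median of chromosome 8 has in these values was not tested.

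The inhibited microRNA pairs with messages through bases 2 to 8, its seed, shown in capitals. Its mature form is printed from RefSeq (GRCm38.p6, chromosome 8, plus strand) beside that of miR-27b-3p, from another locus, which has the same seed.
miR-27a-3p: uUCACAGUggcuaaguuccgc
miR-27b-3p: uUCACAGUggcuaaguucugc

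A perfect 8mer match (ACTGTGAA) was found in the longest annotated 3′ UTR of 3 of the 29 genes, Sc5d, Npc2 and Abca1, against 5.92% of 21021 genes with a UTR. Npc1 had 1 match of 7 letters (ACTGTGA), a match of that length or longer being found in 16% of those genes. The 3 sites are printed with the 22 bases before them, in transcript direction, from GENCODE transcripts of GRCm38 (chr9:42252881-42252910, chr12:84756759-84756788 and chr4:53031477-53031506, all on the minus strand), with the match in capitals.
Sc5d: aatcgaaaacaagacactgatcACTGTGAA
Npc2: cttgacccagggctatggatccACTGTGAA
Abca1: aaaaatagtggaaaacttactaACTGTGAA

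The 3 genes with such a site did not share a direction. Sc5d fell 1.43-fold, Npc2 was slightly higher (log2 fold change 0.08) and Abca1 was near the counting limit in both lines. A match in these letters is a description and no measure of pairing, and the libraries hold no mature microRNAs.

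Promoter windows were available for 23 of the 29 genes, in 29 windows. The sterol element core TCACNCCAC, searched on both strands, was in 1 of these windows, that of Hmgcs1, and in 1.24% of 32851 promoter windows of all genes. Only this spelling was searched, so the count does not cover sterol elements spelled otherwise. CCAAT, the box bound by the factor NF-Y that often sits beside sterol elements, was in 20 of the 29 windows (69.0%) and in 37.4% of all windows, on either strand and with no overlap with the sterol core. Genes that fell and genes that rose both had it. The windows of Lss, which fell (GRCm38.p6 chr10:76531355-76531654, plus strand), and of Soat1, which rose (chr1:156474279-156474578, minus strand), are shown as a pair that moved in opposite directions, with CCAAT or ATTGG in capitals.
Lss: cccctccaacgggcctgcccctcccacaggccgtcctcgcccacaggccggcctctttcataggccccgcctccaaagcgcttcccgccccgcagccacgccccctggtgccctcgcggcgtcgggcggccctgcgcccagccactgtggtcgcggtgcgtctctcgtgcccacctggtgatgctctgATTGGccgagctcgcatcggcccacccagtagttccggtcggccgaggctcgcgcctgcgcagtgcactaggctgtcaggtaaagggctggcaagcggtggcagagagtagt
Soat1: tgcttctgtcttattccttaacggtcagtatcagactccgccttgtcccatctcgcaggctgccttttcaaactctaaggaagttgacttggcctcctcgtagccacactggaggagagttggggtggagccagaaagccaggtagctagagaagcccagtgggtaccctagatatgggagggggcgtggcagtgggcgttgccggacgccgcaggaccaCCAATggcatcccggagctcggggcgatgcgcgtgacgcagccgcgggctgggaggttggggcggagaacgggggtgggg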

How the data were processed

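RNA with an integrity number of at least 7 was made into stranded mRNA libraries and read as paired ends of 59 bases, per the labels' protocols. The authors deposited raw read counts per gene symbol, 1 column per library. The submitters' processing notes name bcl2fastq 2.20, Bowtie, STAR, DESeq2 1.36.0, R 4.2.1 and build mm10 without roles. Which tool and annotation produced the counts, and whether strand was used, is not given in the sources used here.

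From these counts, edgeR 4.0.16 in R 4.3.3 was run on group alone over all genes: filterByExpr (minimum count 10, total 15), TMM factors (0.991 to 1.01), glmQLFit and glmQLFTest, Benjamini-Hochberg adjusted p under 0.05. The SE is the log2 fold change over the square root of F. Levels are TMM-scaled CPM, and mean ± SD is over n = 4. The cell type markers and the limit for a count of 0 use plain library totals instead. Replicates of a line differed by a chi-square per gene of at least 1.72, so each was counted. Exon lengths, overlaps and UTRs came from GENCODE M21 (GRCm38) and promoter and microRNA sequences from RefSeq. For Abca1 and Abcg1 an exact permutation test was used.

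All 29 genes are named, with up to 4 called genes per direction of a wider sterol list and the nearest 2 tested genes each side of Cyp51. The 4 falls of the wider list that this rule takes are given as a range and not named, and 1 of its rises is not reported here. The members and lists were chosen with earlier results of these data known. Alternatives were other normalizations, filters, tests and thresholds, the replicate number as a block, and leaving out each library (DESeq2 1.42.0, limma 3.58.1).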

Additional observations from a re-analysis of the deposited data

Results flagged for a closer look

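Of 52 groups of 4 libraries, 1 held a library far from the other 3 by Dixon's criterion, where chance gives about 1 in 20. Sqle had 181.7 CPM in knockdown replicate 3, against 176.2 to 176.6 CPM in the other 3 knockdown libraries. The gap to the nearest of them was 0.923 of the whole range of the 4 knockdown values, and all 4 knockdown values lay below the scrambled ones.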

How the results depend on the processing

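DESeq2's size factors, upper-quartile factors, plain library totals, the stricter filter, DESeq2 and limma-voom each gave 19 falls and 3 rises among the 26 genes, and no filter gave 20 and 3. In a test against a fold of 1.2, 8 fell and 1 rose: 4 falls before Cyp51, 2 falls and 0 rises after it, 0 falls of regulators and 1 rise among transport and storage genes. By that test 4 of the wider sterol genes fell and 1 rose, and 523 of all genes fell and 584 rose. At an adjusted p under 0.01 there were 11 rises in the wider list and 1 rise among transport and storage genes. Leaving out each library gave 17 to 20 falls and 2 to 3 rises, with 1 to 2 rises among transport and storage genes. Over all genes it gave 2575 to 3002 falls and 2532 to 3002 rises. No gene changed direction past the threshold in the 468 comparisons of a tested gene with an alternative, 443 of which kept the call. CCAAT in place of the sterol core was in 20 genes. The lower counts at a fold of 1.2 and at 0.01 follow from the stricter rule itself. With the replicate number as a block, 19 fell and 3 rose. Libraries with the same number did not deviate together (correlations −0.035 to 0.0201), so the numbers were not taken as pairs.

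Depth limits Abca1, Abcg1 and Mylip. Shared exon bases or near-identical copies limit Acat2, Fdps, Idi1, Fdft1, Tm7sf2 and Cyp51, and also Scap (985 bases shared with 5830462I19Rik), Hmgcs1 (557 with Gm48342), Npc1 (511 with Rmc1 and 90 with Gm15956) and Lss (381 with 4930483K19Rik), all on the opposite strand. In addition, 1 stable line per group cannot be told apart from the knockdown.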

Other observations

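The log2 fold change of Cyp51 minus the median of the other 36 genes of its stretch of chromosome 5 was −0.50. Its difference was −0.54 against the median of the 10 nearest tested genes, 5 on each side. The other 17 synthesis genes, none of them in that stretch, had a median log2 fold change of −0.30 and ran from −0.64 to 0.26. Whether these values are related was not tested.

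Relative to the median of all tested genes on their own chromosome, Msmo1 stood at −0.30 and Mvd at −0.41 on the log2 scale. As measured they stood at −0.09 and −0.21, the median of chromosome 8 being 0.21. Tm7sf2 stood at 0.15 above its chromosome 19 median and Soat1 at 0.52 above that of chromosome 1. Npc2, called higher, stood at −0.02 against the median of chromosome 12. These differences from a chromosome median carry no test.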
